A study of Homo sapiens with 28 samples.

Results

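Glycolysis and the tricarboxylic acid (TCA) cycle were followed through 41 genes that encode the glucose and lactate transporters, the enzymes of both pathways, the regulators at their branch points and PGD, an oxidative enzyme of the pentose phosphate pathway. The members were fixed by gene symbol and all 41 were found among the 61815 human genes of the count table. RNA was measured in LNCaP, an established androgen-responsive human prostate cancer cell line of wild-type genotype per the labels, held before any treatment for 72 h without steroids, in charcoal-stripped serum. In the first experiment cells received for 24 h the vehicle (0.1% DMSO), 1 µM Senexin B, 0.1 nM R1881 or R1881 with Senexin B, with 3 libraries per group. In the second they received for 72 h the vehicle, 500 nM SNX631, 1 nM R1881 or R1881 with SNX631, with 4 libraries per group. R1881 is a synthetic androgen, and Senexin B and SNX631 inhibit CDK8 and CDK19, the kinases of the Mediator complex. The experiments differed in time, R1881 dose and inhibitor at once, so these cannot be told apart. The dose of Senexin B is that of the labels, from which the study text departs. All groups come from 1 cell line, and no animal or patient sample is included. The labels call the replicates biological, without saying whether they were separate cultures started on different days, so p values measure the spread between these libraries.

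Glycolysis turns 1 glucose into pyruvate in the cytosol, through steps that different tissues run with different isozymes. Pyruvate is then either reduced to lactate and exported, or carried into mitochondria, where the pyruvate dehydrogenase complex makes the acetyl-CoA that enters the TCA cycle and pyruvate dehydrogenase kinases switch that complex off. Prostate luminal cells are known for an unusual TCA cycle, since the normal gland secretes citrate, and prostate cancer cells are known to adjust glucose and lipid metabolism to androgen.

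Total counts per library ranged from 9846595 to 33809419, the highest being replicate 3 of the 24 h vehicle and the next 15248512. The common biological coefficient of variation between replicates by edgeR, which leaves out counting noise, was 2.72% at 24 h and 2.38% at 72 h. KLK3, a classical androgen target, was between 0.998 and 1.51 TPM in the 24 h vehicle libraries and between 90.4 and 94.3 TPM with R1881. The 7 luminal markers summed to between 2211 and 3258 TPM in every library, basal markers to at most 0.744 TPM, leukocyte markers to at most 0.127 TPM and endothelial markers to at most 1.71 TPM. Stromal markers, mostly COL1A1, summed to between 2.82 and 14.2 TPM. In bulk RNA, fewer cells of a kind and less RNA per cell cannot be told apart.

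Levels within a gene are given below as CPM, library-scaled counts with TMM factors. Levels between genes are given as TPM, which carry no TMM factors and divide by the merged length of all annotated exons of a gene. That length was 6210 bases for LDHA and 2983 for LDHB, for example. Ratios, shares and ranks between genes thus depend on the annotation, whichever transcripts the cells express. A member passed when its edgeR false discovery rate (FDR), adjusted over all genes tested, was under 0.01, and it was called when it also changed over 1.5-fold, the limits the study used. In each experiment 40 members had enough reads to be tested. The exception was PDK4, a pyruvate dehydrogenase kinase, with 5 counts in total over the 28 libraries and at most 1 in any of them.

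The regulatory sequence in front of the genes is shown for 2 pairs of partners whose RNA moved apart, LDHA with LDHB and MPC2 with MPC1. RefSeq promoter windows were matched by symbol for 38 of the 41 members, and SLC16A1, PFKFB2 and OGDH were not matched. In the 250 bases before the outermost start, ACGTG, the core of the hypoxia response element, was found on either strand in 10 of the 38 members (26.3%) and in 18.6% of 27326 genes with such a window. CACGTG, the E-box that holds this core on both strands, was found in 3 members (7.89%) and in 6.47% of all windows, and AGAACA, a half-site of the androgen receptor, in 3 members (7.89%) and in 12.4% of all windows. LDHA held 3 separate stretches with ACGTG, more than any other member, while LDHB, MPC2 and MPC1 held none of these motifs, which says only that these letters are not in these windows. The stretches below are the parts of these windows with no base that GENCODE 29 annotates as exon of the gene, on GRCh38.p14 and read 5′ to 3′ on the strand of the gene, with motif letters in capitals, namely the E-box of LDHA; the other 2 stretches of LDHA lie in bases annotated as exon and are not shown. They are chr11:18394313-18394387 on the plus strand for LDHA, and on the minus strand chr12:21657972-21658092 for LDHB, chr1:167937073-167937322 for MPC2 and chr6:166383014-166383190 for MPC1. The stretch of LDHB lies within the span of the gene in GENCODE 29, chr12:21635342-21757857, which starts further upstream.
LDHA: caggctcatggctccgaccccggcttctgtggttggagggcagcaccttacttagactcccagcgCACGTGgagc
LDHB: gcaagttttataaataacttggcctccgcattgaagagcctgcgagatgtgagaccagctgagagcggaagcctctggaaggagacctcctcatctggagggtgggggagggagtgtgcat
MPC2: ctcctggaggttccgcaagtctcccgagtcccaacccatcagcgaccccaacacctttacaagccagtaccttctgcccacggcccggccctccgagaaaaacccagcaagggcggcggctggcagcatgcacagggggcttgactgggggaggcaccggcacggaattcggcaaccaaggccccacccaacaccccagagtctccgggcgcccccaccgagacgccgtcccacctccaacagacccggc
MPC1: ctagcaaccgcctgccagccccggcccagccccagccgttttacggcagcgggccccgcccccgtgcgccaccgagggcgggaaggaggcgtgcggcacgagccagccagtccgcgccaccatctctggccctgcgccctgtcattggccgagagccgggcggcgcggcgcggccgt

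In the vehicle groups, without R1881 or inhibitor, the glycolytic enzymes were among the most abundant transcripts of the list. GAPDH, which oxidises glyceraldehyde 3-phosphate, led with 3259 ± 25 TPM (SD, n = 3) in the 24 h vehicle and 3267 ± 25 TPM (SD, n = 4) in the 72 h vehicle, followed by TPI1 with 1069 ± 21 and 1012 ± 23 TPM. The lowest expressed members that were tested were regulators and a transporter. PDK1 stood at 6.68 ± 0.075 TPM, the lactate exporter SLC16A3 at 7.19 ± 0.14 TPM and PFKFB4 at 9.55 ± 0.55 TPM in the 24 h vehicle. Together the 19 genes of glucose uptake, glycolysis and lactate handling took 0.855 ± 0.0043% of all counts in the 24 h vehicle (SD, n = 3) and 0.806 ± 0.0038% in the 72 h vehicle (SD, n = 4). The 10 TCA cycle and partner genes took 0.205 ± 0.0028% and 0.190 ± 0.00085%.

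The first comparison asked how androgen changed these genes in androgen-deprived cells. R1881 raised most of them. At 24 h 27 members passed upward and 4 downward, against 26.3% and 22.1% of the 15948 genes tested, and 8 members were called against 19% of all genes. At 72 h 30 members passed upward and 4 downward, against 27.6% and 24.6% of the 16074 genes tested, and 10 were called against 19.8%. The share called was thus close to that of all genes, while the direction was mostly upward. The median log2 fold change was 0.22 over the members beside −0.02 over all genes at 24 h, and 0.26 beside −0.01 at 72 h. Because the members were chosen with earlier results of these data known, this contrast with all genes only describes the list. The share of counts in the 19 glycolysis genes was 0.925 ± 0.016% with R1881 at 24 h and 0.938 ± 0.0096% at 72 h, and that of the 10 TCA genes was 0.270 ± 0.0022% and 0.251 ± 0.0041%, in each case above every vehicle library. Much of the TCA gain lay in 1 gene, the cytosolic IDH1. Its mean was 267 CPM with vehicle and 831 CPM with R1881 at 24 h, and 256 and 760 CPM at 72 h. The median log2 fold change of the 10 TCA genes was 0.22 at 24 h and 0.19 at 72 h. R1881 also raised all 12 listed proliferation genes in each experiment, with a median log2 fold change of 2.19 at 24 h and 1.49 at 72 h, and the part of proliferation in the changes of the members was not tested. Only 1 of the 4 stromal and 1 of the 2 endothelial markers had enough reads to be tested for R1881. With R1881 the stromal marker COL1A1 fell by 0.67 and by 0.47 on the log2 scale (edgeR FDR = 6.42e-09 and 5.76e-07). The endothelial marker VWF rose by 1.32 and 2.04 (edgeR FDR = 4.86e-05 and 5.83e-10) from means of 0.422 and 0.397 TPM, and the part of these markers was not tested either.

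The largest change belonged to MPC2, a subunit of the carrier that brings pyruvate into mitochondria (chr1:167916729-167937040, minus strand, GENCODE 29 on GRCh38). MPC2 was at 119, 114 and 117.6 CPM in the 24 h vehicle libraries and at 435, 472 and 449 CPM with R1881. At 72 h it was at 109.6, 113, 109.6 and 110.2 CPM with vehicle and at 603, 574, 579 and 584 CPM with R1881. The groups lay far apart in both experiments, and R1881 raised MPC2 on the log2 scale by 1.95 ± 0.039 (± SE, edgeR FDR = 1.70e-28) in the first experiment and by 2.40 ± 0.026 (edgeR FDR = 1.88e-41) in the second, that is 3.86-fold and 5.28-fold. MPC1, the obligate partner subunit, did not follow. MPC1 was at 16.8, 17.8 and 16.98 CPM in the 24 h vehicle libraries and at 16.5, 15.3 and 15.7 CPM with R1881, with a log2 difference of −0.12 ± 0.078 (edgeR FDR = 0.207). At 72 h the values were 15.1, 16.6, 16.7 and 16.1 CPM with vehicle and 13.6, 13.9, 16.04 and 15.2 CPM with R1881, with a log2 difference of −0.14 ± 0.087 (edgeR FDR = 0.171). The MPC1 libraries of these groups did not overlap at 24 h and overlapped at 72 h. Per length, MPC2 exceeded MPC1 4.13-fold in the 24 h vehicle and 17.3-fold with R1881, and 4.15-fold and 24.2-fold at 72 h.

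**Figure D1:**
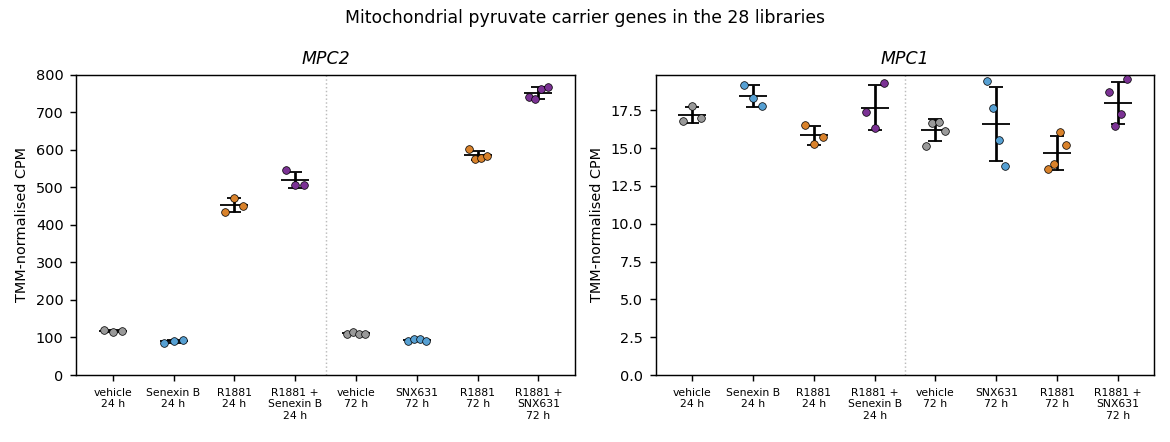
MPC2 (left) and MPC1 (right) in TMM-normalised CPM in the 28 libraries, by treatment group, with each point a library and bars showing the mean and SD. MPC2 stood near 110 CPM in the 72 h vehicle and at 574 CPM or above in every 72 h library with R1881, while MPC1 stayed between 13.6 and 19.6 CPM in all groups; the vertical axes start at 0 and differ in scale.

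At the entrance of the pathway all 3 genes rose in both experiments. SLC2A1, the main glucose transporter of proliferating cells, was at 39.1, 33.4 and 35.5 CPM in the 24 h vehicle libraries and at 52.99, 54.4 and 49.5 CPM with R1881. The log2 fold change was 0.55 ± 0.057 (edgeR FDR = 7.35e-10), under the 1.5-fold limit. At 72 h SLC2A1 was at 33.3, 32.9, 33.6 and 33.1 CPM with vehicle and at 59.4, 59.9, 60.6 and 58.2 CPM with R1881, with a log2 fold change of 0.84 ± 0.047 (edgeR FDR = 2.36e-18). The hexokinases trap glucose in the cell as its phosphate. HK2, the form known from tumours, was at 41.3, 39.4 and 40.4 CPM in the 24 h vehicle libraries and at 75.7, 70.5 and 73.1 CPM with R1881 (log2 fold change 0.86 ± 0.046, edgeR FDR = 6.33e-17). At 72 h HK2 was at 45.2, 46.9, 49.7 and 48.4 CPM with vehicle and at 95.1, 100.5, 103 and 98.6 CPM with R1881 (log2 fold change 1.06 ± 0.039, edgeR FDR = 4.94e-24). HK1, the constitutive form, rose less. It was at 256, 240.4 and 244 CPM in the 24 h vehicle libraries and at 345, 352 and 344 CPM with R1881 (log2 fold change 0.49 ± 0.038, edgeR FDR = 5.42e-13). At 72 h HK1 was at 226, 221, 225 and 229.7 CPM with vehicle and at 377, 378, 388 and 385 CPM with R1881 (log2 fold change 0.76 ± 0.023, edgeR FDR = 1.28e-26). No R1881 library of these 3 genes overlapped with a vehicle library. HK1 nevertheless remained the main hexokinase transcript of the pair, with 85.5 ± 0.16% of their summed TPM in the 24 h vehicle and 82.1 ± 0.69% with R1881, and with 82.03 ± 0.63% and 78.8 ± 0.43% at 72 h.

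Between glucose 6-phosphate and triose phosphates the isozymes moved in opposite directions. Of the 7 members of this stretch 4 rose and 2 fell in each experiment. The genes that rose were GPI, the isomerase, with log2 fold changes of 0.15 at 24 h and 0.26 at 72 h, PFKL, the liver-type phosphofructokinase, with 0.17 and 0.42, ALDOA, the main aldolase, with 0.10 and 0.31, and TPI1, with 0.13 and 0.33. The genes that fell were PFKM, the muscle-type phosphofructokinase, with −0.20 and −0.34, and ALDOC, the brain-type aldolase, with −0.24 and −0.13. PFKP, the platelet-type phosphofructokinase, did not pass in either experiment. The summed phosphofructokinase TPM of 278 ± 5.1 in the 24 h vehicle and 260.1 ± 5.6 with R1881 covered a change of makeup. PFKL took 41.6 ± 0.48% of it with vehicle and 47.4 ± 0.7% with R1881 at 24 h, and 36.3 ± 0.7% and 47.3 ± 0.86% at 72 h, while PFKM went from 49.4 ± 0.51% to 38.1 ± 0.87% at 72 h.

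In the second stretch of glycolysis, from GAPDH to pyruvate, 3 of 5 members rose at 24 h and all 5 at 72 h. ENO1, the ubiquitous enolase, changed most, with log2 fold changes of 0.44 ± 0.03 (edgeR FDR = 2.81e-14) and 0.52 ± 0.02 (edgeR FDR = 1.73e-23). PGAM1, the phosphoglycerate mutase, gave 0.29 and 0.44, and PGK1, a kinase that makes ATP, gave 0.15 and 0.26. PKM, the pyruvate kinase that makes the second ATP, passed only the test at 72 h, with 0.20 ± 0.02 (edgeR FDR = 5.70e-11). GAPDH, often used as a reference gene, likewise passed at 72 h, with a log2 fold change of 0.12 ± 0.017 (edgeR FDR = 3.04e-07), and not at 24 h (edgeR FDR = 0.312). The difference of the R1881 effect between the experiments was itself past the threshold for PKM (log2 difference 0.14, edgeR FDR = 0.00172) but not for GAPDH.

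All 4 genes of lactate formation and transport rose in both experiments, and LDHA more than LDHB. LDHA encodes the subunit of lactate dehydrogenase that favours lactate formation, and it was at 317, 323 and 325 CPM in the 24 h vehicle libraries and at 573, 597 and 575 CPM with R1881. At 72 h LDHA was at 355, 358, 366 and 362 CPM with vehicle and at 780.2, 756, 754 and 736 CPM with R1881. All R1881 libraries were above all vehicle libraries, with log2 fold changes of 0.85 ± 0.033 (edgeR FDR = 9.74e-21) and 1.07 ± 0.023 (edgeR FDR = 4.47e-32). LDHB, the subunit of oxidative tissues, was at 92.8, 92.01 and 90.9 CPM in the 24 h vehicle libraries and at 112, 119 and 116 CPM with R1881 (log2 fold change 0.34 ± 0.039, edgeR FDR = 8.56e-09). At 72 h LDHB was at 97.4, 98.3, 98.7 and 105 CPM with vehicle and at 113, 117.6, 124 and 117.9 CPM with R1881 (log2 fold change 0.24 ± 0.035, edgeR FDR = 1.52e-07). Per length, LDHA exceeded LDHB 1.68-fold with vehicle and 2.41-fold with R1881 at 24 h, and 1.73-fold and 3.08-fold at 72 h. The summed TPM of both genes was 337 ± 1.7 with vehicle and 514 ± 4.7 with R1881 at 24 h, and 379 ± 7.1 and 624 ± 8.8 at 72 h.

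The monocarboxylate transporters carry lactate across the plasma membrane. SLC16A1, the widespread form, was at 117, 117.6 and 118.3 CPM in the 24 h vehicle libraries and at 175, 189 and 176 CPM with R1881 (log2 fold change 0.61 ± 0.036, edgeR FDR = 6.84e-16). At 72 h SLC16A1 was at 143, 147, 148 and 146 CPM with vehicle and at 197, 192, 194 and 185 CPM with R1881 (log2 fold change 0.40 ± 0.028, edgeR FDR = 3.72e-15). SLC16A3, the form known for lactate export in glycolytic cells, was at 15.96, 16.1 and 15.5 CPM in the 24 h vehicle libraries and at 19.9, 21.4 and 18.5 CPM with R1881 (log2 fold change 0.34 ± 0.078, edgeR FDR = 0.000391). Neither gene had overlapping groups. At 72 h SLC16A3 was at 10.4, 11.6, 11.4 and 10.8 CPM with vehicle and at 18.6, 20.6, 19.97 and 20.2 CPM with R1881 (log2 fold change 0.84 ± 0.07, edgeR FDR = 3.32e-13). SLC16A1 remained the more abundant per length, 12.6-fold with vehicle and 15.3-fold with R1881 at 24 h, and 22.4-fold and 16.4-fold at 72 h.

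The regulators of glycolytic flux and of pyruvate dehydrogenase contained the clearest opposite movements. PFKFB2 makes fructose 2,6-bisphosphate, the activator of phosphofructokinase, and was at 56.05, 58.1 and 58.2 CPM in the 24 h vehicle libraries and at 162, 166 and 179.5 CPM with R1881 (log2 fold change 1.55 ± 0.05, edgeR FDR = 5.77e-23). At 72 h PFKFB2 was at 53.95, 56.5, 52.8 and 56.3 CPM with vehicle and at 159.5, 166, 164 and 162 CPM with R1881 (log2 fold change 1.57 ± 0.039, edgeR FDR = 1.16e-29). PFKFB3, a related enzyme known from proliferating cells, rose less, with log2 fold changes of 0.36 and 0.22, and PFKFB4 passed only the test at 72 h, with 0.25. The share of PFKFB2 in the summed TPM of these 3 genes was 48.3 ± 0.57% with vehicle and 69.4 ± 1.5% with R1881 at 24 h, and 48.98 ± 0.38% and 70.8 ± 0.28% at 72 h. PDK1 and PDK2 both phosphorylate and switch off pyruvate dehydrogenase, and R1881 moved them in opposite directions. PDK1 was at 24.4, 24.7 and 24.01 CPM in the 24 h vehicle libraries and at 40.3, 46.8 and 44.3 CPM with R1881 (log2 fold change 0.85 ± 0.063, edgeR FDR = 2.01e-13). At 72 h PDK1 was at 29.6, 29, 28.2 and 27.6 CPM with vehicle and at 45.5, 46.01, 45.2 and 43.5 CPM with R1881 (log2 fold change 0.66 ± 0.054, edgeR FDR = 2.36e-13). PDK2 was the only called member that fell with R1881. PDK2 was at 35.8, 32.7 and 31.97 CPM in the 24 h vehicle libraries and at 18.9, 19.1 and 19.2 CPM with R1881 (log2 fold change −0.79 ± 0.067, edgeR FDR = 5.76e-12). At 72 h PDK2 was at 31.9, 36.03, 31.8 and 33.95 CPM with vehicle and at 20.5, 23.6, 22.1 and 22.1 CPM with R1881 (log2 fold change −0.59 ± 0.073, edgeR FDR = 6.15e-09). The 72 h call of PDK2, at 1.51-fold, was lost with no filter on low counts (1.49-fold), without replicate 2 of the vehicle (1.47-fold) and without replicate 1 of R1881 (1.48-fold), each with an FDR still under 0.01. PDK3 did not pass in either experiment. The summed TPM of the kinases was 57.2 ± 1.5 with vehicle and 51.5 ± 2.1 with R1881 at 24 h, and 61.7 ± 1.9 and 53.7 ± 3.1 at 72 h, in which the share of PDK1 went from 11.7 ± 0.3% to 22.1 ± 1.7% and from 12.9 ± 0.35% to 21.8 ± 1.2%.

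**Figure D2:**
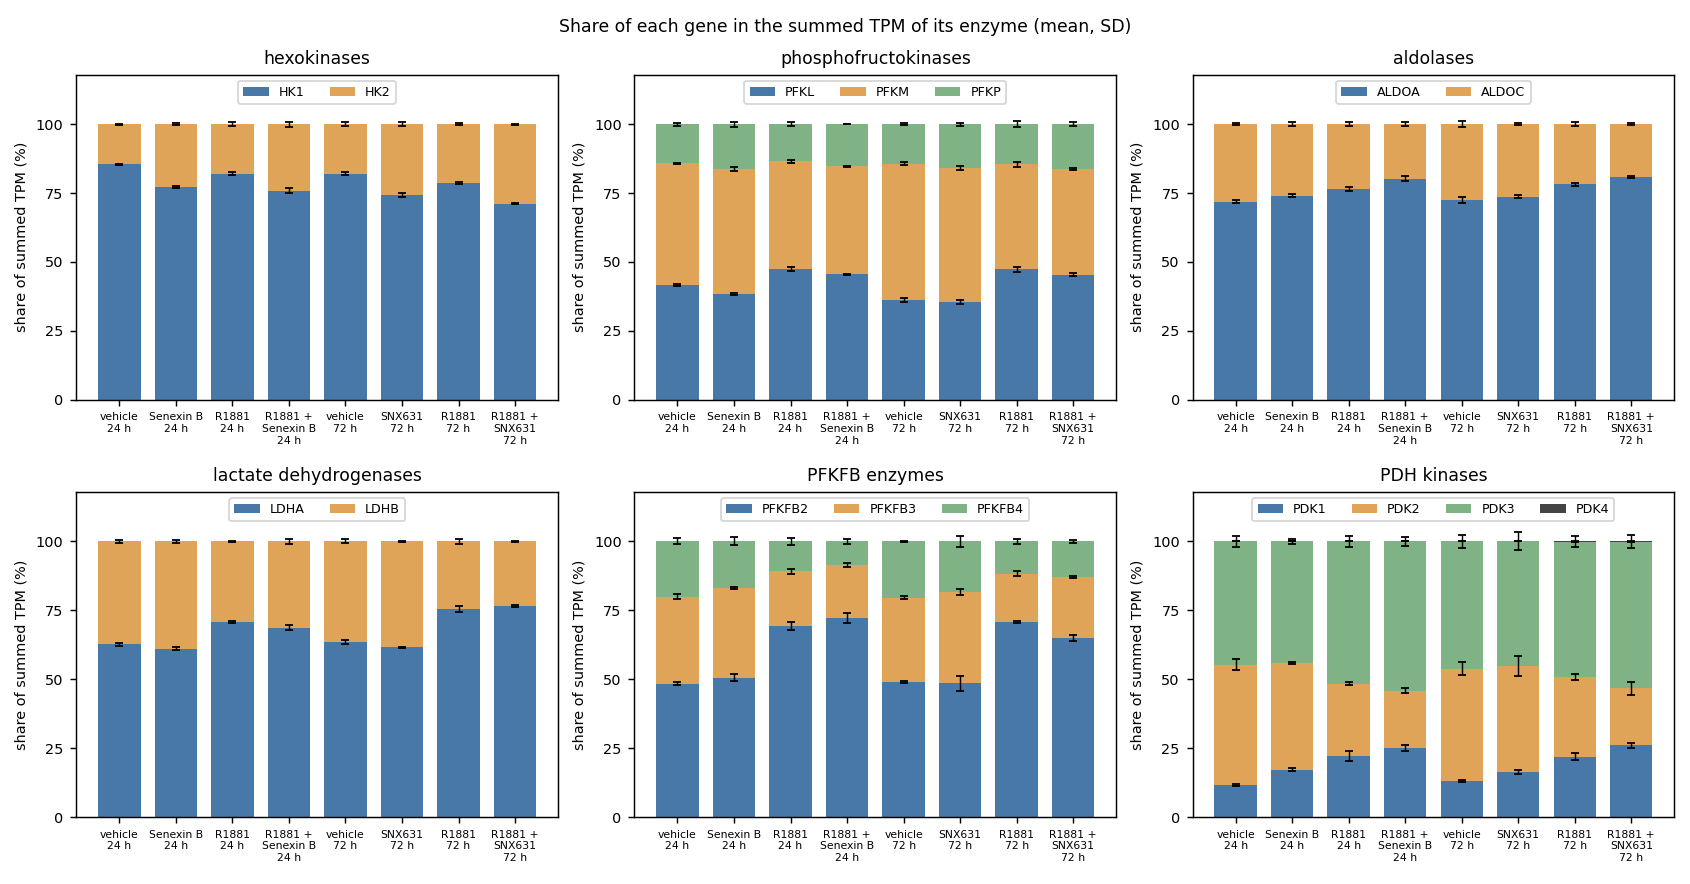
Share of each gene in the summed TPM of its enzyme, in percent, by treatment group, as stacked bars of group means with the SD over 3 or 4 libraries. With R1881 the segments of PFKL, LDHA, PFKFB2 and PDK1 are taller than with vehicle in both experiments, LDHA going from 62.7 to 70.7% at 24 h, and in the 72 h experiment from 63.4 to 75.5%.

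Of the other genes of pyruvate entry, PDHA1, a catalytic subunit of pyruvate dehydrogenase, rose by log2 0.16 at 24 h and 0.23 at 72 h, and PC, which turns pyruvate into oxaloacetate, by 0.44 and 0.47. Among the 10 TCA cycle and partner genes 6 passed upward and 1 downward in each experiment. IDH1, the cytosolic isocitrate dehydrogenase that makes NADPH, led this group and was second only to MPC2 in the whole list at 24 h (chr2:208236227-208266074, minus strand). IDH1 was at 272, 261 and 270.1 CPM in the 24 h vehicle libraries and at 839, 834 and 821 CPM with R1881 (log2 fold change 1.64 ± 0.033, edgeR FDR = 2.18e-28). At 72 h IDH1 was at 251, 258, 261 and 252 CPM with vehicle and at 799, 755, 749 and 737 CPM with R1881 (log2 fold change 1.57 ± 0.026, edgeR FDR = 1.52e-35). Its mitochondrial counterpart IDH2 rose too, without being called. IDH2 was at 143, 133 and 137 CPM in the 24 h vehicle libraries and at 194, 207 and 199 CPM with R1881 (log2 fold change 0.54 ± 0.037, edgeR FDR = 3.16e-14). At 72 h IDH2 was at 146, 140.4, 139 and 146 CPM with vehicle and at 217, 215, 212 and 209.5 CPM with R1881 (log2 fold change 0.58 ± 0.029, edgeR FDR = 5.72e-20). Per length IDH1 exceeded IDH2 1.16-fold with vehicle and 2.48-fold with R1881 at 24 h, and 1.07-fold and 2.12-fold at 72 h. IDH3A, a subunit of the NAD-linked enzyme of the cycle itself, gave log2 fold changes of 0.44 and 0.46, CS, the citrate synthase, 0.28 and 0.16, FH, the fumarase, 0.27 and 0.23, and OGDH, a subunit of the oxoglutarate dehydrogenase complex, 0.17 and 0.43. ACO1, the cytosolic aconitase that doubles as an iron sensor, fell by 0.23 and by 0.14 on the log2 scale. MDH1, MDH2 and SUCLA2 did not pass in either experiment. PGD rose by log2 0.29 and 0.13.

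**Figure D3:**
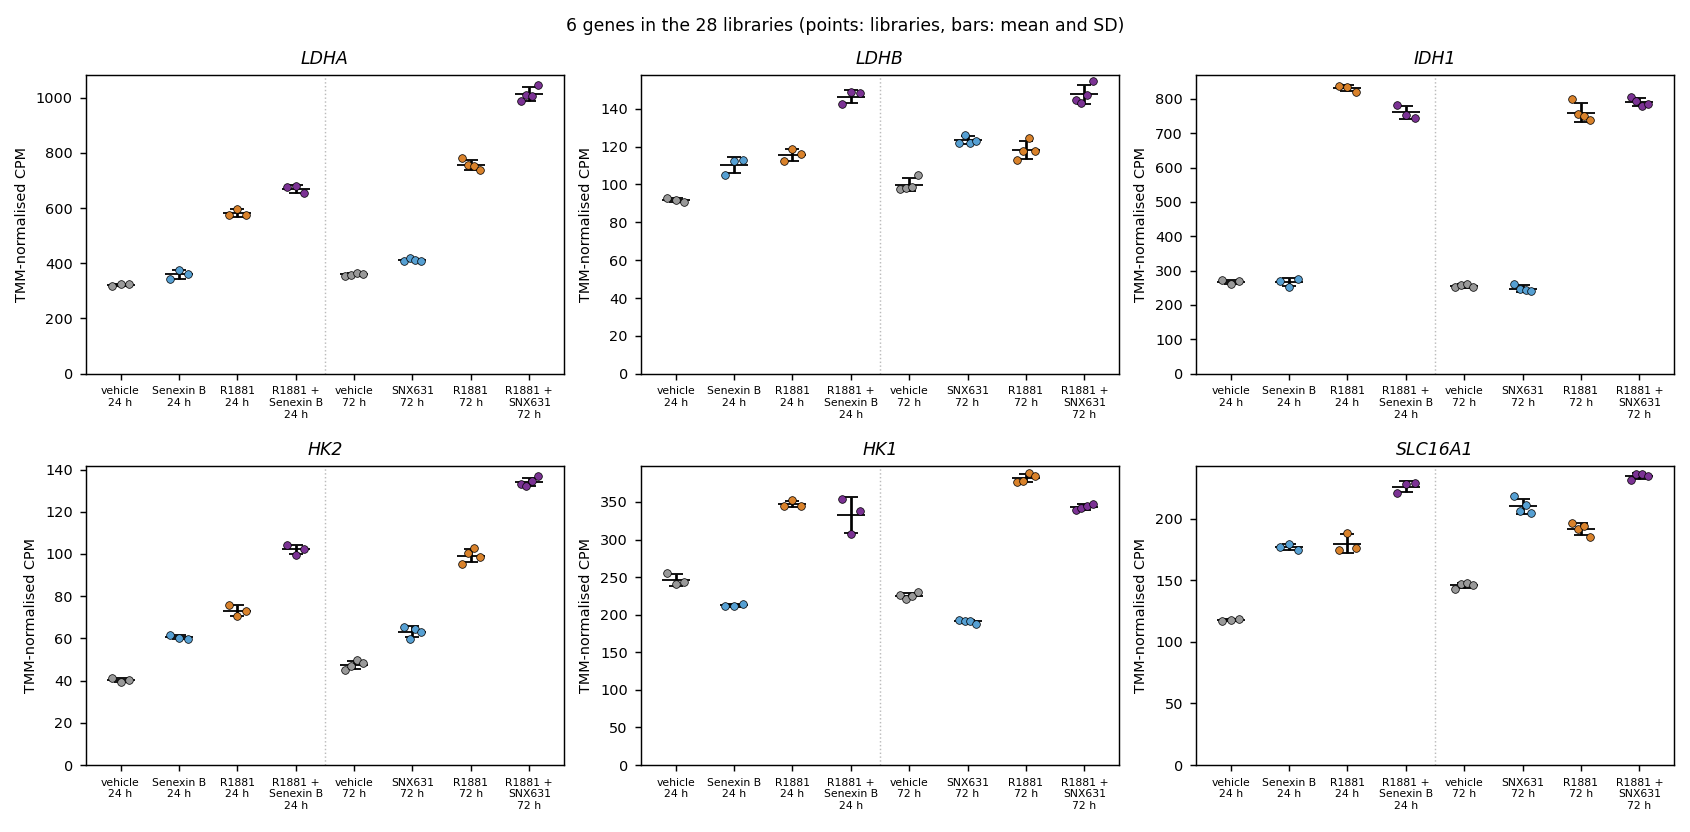
LDHA, LDHB, IDH1, HK2, HK1 and SLC16A1 in TMM-normalised CPM in the 28 libraries by treatment group, with each point a library and bars showing the mean and SD. IDH1 separates the libraries with R1881 from those without, LDHA and HK2 are highest with R1881 and inhibitor together, and HK1 is lower with an inhibitor alone than with vehicle; the vertical axes start at 0 and differ in scale.

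Scaling bears on the small changes. TPM carry no TMM factors, and at 24 h GAPDH had 3259 TPM with vehicle and 3172 TPM with R1881, but 2380 and 2439 CPM. Small differences between groups in summed TPM, as for the phosphofructokinases and the pyruvate dehydrogenase kinases, are therefore not read as changes. With library totals in place of TMM the median log2 fold change of all genes at 72 h shifted from −0.01 to −0.12, both for R1881 alone and for R1881 under SNX631. Among all genes called at 72 h, the share that were higher with R1881 was 38% under that scaling and 48.9% with TMM, and under SNX631 35% and 45.7%. With library totals 20 members passed upward and 6 downward with R1881 at 24 h, and 25 and 4 at 72 h, so that members still passed mostly upward relative to that shift. For R1881 under SNX631 it gave 30 upward and 4 downward. For the inhibitors alone it gave 11 members upward and 5 downward with Senexin B, with a median log2 fold change of −0.0024, and 11 and 7 with SNX631, with a median of 0.02.

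The second comparison asked whether the R1881 effect differed when a CDK8/19 inhibitor was present. Under Senexin B, R1881 raised 29 members and lowered 4, against 26.3% and 21.2% of all genes, and 10 were called against 18.9%. Under SNX631 it raised 34 and lowered 2, against 29.8% and 27.5%, and 14 were called against 22%, with a median log2 fold change of 0.41 over the members beside −0.01 over all genes. These comparisons use other libraries than those without inhibitor, and the difference itself was tested by the interaction term. At 24 h 1 member passed upward (MPC2) and 1 downward (SLC16A1), against 1.08% and 1.02% of all genes, and only MPC2 was called, against 0.577%. That call lay at the 1.5-fold limit and was lost with DESeq2 and with 7 of the 12 libraries left out in turn, although MPC2 kept its direction. At 72 h 13 members passed upward and 2 downward, against 2.99% and 4.1% of all genes, and again only MPC2 was called, against 1.19%.

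MPC2 was at 84.5, 91.6 and 92.98 CPM with Senexin B alone and at 545, 507 and 507 CPM with Senexin B and R1881. At 72 h it was at 91.7, 94.9, 95.8 and 91.1 CPM with SNX631 alone and at 742, 734, 761 and 766 CPM with SNX631 and R1881. Both inhibitors thus went with less MPC2 where R1881 was absent and with more where it was present. The R1881 effect of log2 2.54 ± 0.041 under Senexin B exceeded that without it by 0.59 ± 0.057 (edgeR FDR = 1.19e-08), and that of 3.01 ± 0.027 under SNX631 exceeded that without it by 0.61 ± 0.038 (edgeR FDR = 1.35e-14). SLC16A1 went the other way, with interactions of −0.26 ± 0.05 (edgeR FDR = 0.00106) and −0.23 ± 0.038 (edgeR FDR = 2.54e-05). It was at 177, 179.8 and 174 CPM with Senexin B and at 221, 228 and 229.5 CPM with Senexin B and R1881. At 72 h it was at 218, 206, 211 and 205 CPM with SNX631 and at 232, 237, 236 and 235 CPM with SNX631 and R1881, where R1881 added log2 0.16 ± 0.026 (edgeR FDR = 1.14e-06).

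The 12 members besides MPC2 that passed upward at 72 h included glucose uptake (SLC2A1), GPI, ALDOA, PGK1, PGAM1 and ENO1 of glycolysis, LDHA and SLC16A3 of lactate formation and export, the regulators PFKFB3 and PDK3, and IDH3A and MDH1. SLC2A1 was at 33.2, 31.1, 31.7 and 28.3 CPM with SNX631 and at 74.5, 70.2, 72.3 and 77.3 CPM with SNX631 and R1881 (interaction 0.40 ± 0.066, edgeR FDR = 2.78e-05). SLC16A3 was at 8.57, 9.38, 8.80 and 9.20 CPM with SNX631 and at 21.1, 20.9, 22.6 and 22.1 CPM with SNX631 and R1881 (interaction 0.42 ± 0.1, edgeR FDR = 0.00345). SNX631 beside R1881 raised SLC2A1 by log2 0.30, and SNX631 alone lowered SLC16A3, with a log2 fold change of −0.30, whereas SNX631 alone did not pass for SLC2A1 and SNX631 beside R1881 did not pass for SLC16A3. PDK3, which R1881 alone left at 30.4, 33.6, 37.4 and 33.8 CPM beside 34.98, 34.2, 36.04 and 30.8 CPM with vehicle, was at 35.1, 30.8, 35.99 and 32.7 CPM with SNX631 and at 44.4, 47.3, 44.1 and 46.8 CPM with both. The libraries with both agents were above all others of PDK3 at 72 h (interaction 0.44 ± 0.082, edgeR FDR = 0.000164). At 24 h PDK3 was at 30.3, 30.6 and 32.2 CPM with vehicle and at 30.6, 32.5 and 30.5 CPM with Senexin B. With R1881 it was at 34.4, 31.8 and 35.8 CPM and with both agents at 41.1, 40.7 and 40.99 CPM, again above all others, but its interaction did not pass there. LDHA was at 408, 418, 412 and 408 CPM with SNX631 and at 988, 1008, 1004 and 1047 CPM with both agents, the highest level of LDHA in the series (interaction 0.23 ± 0.031, edgeR FDR = 1.34e-06). OGDH passed downward, with an interaction of −0.17 ± 0.037 (edgeR FDR = 0.00105). IDH1, PFKFB2, HK2 and PDK2, which R1881 changed strongly, had no interaction past the threshold in either experiment. Over the same contrast 10 of the 12 proliferation genes passed downward at 72 h and 4 at 24 h, and their part in the result was not tested.

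**Figure D4:**
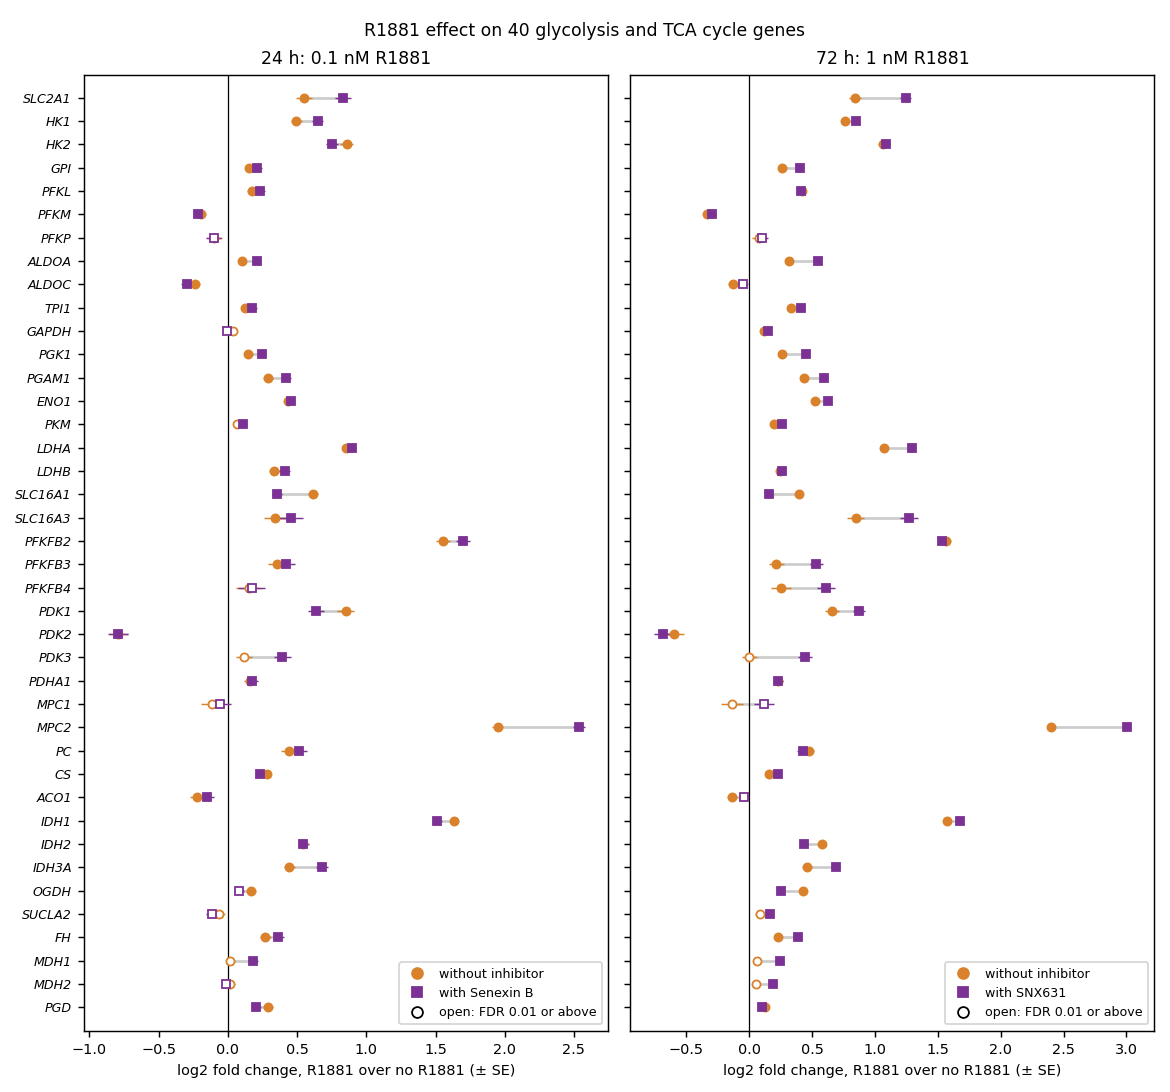
Log2 fold change with R1881 over no R1881 for the 40 tested members, in pathway order, at 24 h (left) and 72 h (right), without inhibitor (circles) and with inhibitor (squares), with bars for the SE and open symbols for FDR of 0.01 or above. MPC2 has the largest effect in both panels, 1.95 and 2.40 without inhibitor and 2.54 and 3.01 with it, and PDK2 lies on the negative side in both.

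The third comparison asked what the inhibitors did by themselves. The changes were small. Senexin B alone raised 12 members and lowered 2, against 13.5% and 11.7% of all genes, and 3 were called, against 3.79%, while with library totals 5 were lower and 0 were called. SNX631 alone raised 14 and lowered 4, against 14.4% and 12.5%, and 0 were called, against 4.77%. In the presence of R1881, Senexin B raised 21 members and lowered 3, against 12.7% and 9.99%, with 0 called against 3.12%, and SNX631 raised 26 and lowered 4, against 17.8% and 15.4%, with 0 called against 4.12%. The median log2 fold change of the members was 0.04 for Senexin B and 0.05 for SNX631 without R1881, and 0.13 and 0.19 with it, beside values between −0.01 and 0.01 over all genes. In the 3 comparisons with 0 called by edgeR, 26 members with SNX631 alone, 26 with Senexin B beside R1881 and 33 with SNX631 beside R1881 had an unadjusted p under 0.05, beside 44.6%, 42.1% and 49% of all genes, and DESeq2 called 0 in each; the largest fold in them was 1.44, 1.40 and 1.49.

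The 3 members called with Senexin B alone were HK2, SLC16A1 and PDK1, and all 3 passed upward in each of the 4 inhibitor comparisons. HK2 was at 61.8, 60.05 and 59.8 CPM with Senexin B and at 65.3, 59.8, 64.7 and 63.02 CPM with SNX631, above all vehicle libraries of its experiment, with log2 fold changes of 0.59 ± 0.046 (edgeR FDR = 1.14e-11) and 0.41 ± 0.042 (edgeR FDR = 3.25e-10). With R1881 as well, HK2 was at 104, 99.7 and 102 CPM with Senexin B and at 133, 132, 134 and 137 CPM with SNX631, its highest levels in each experiment. PDK1 was at 35.9, 35.8 and 37.9 CPM with Senexin B and at 38.6, 35.4, 35.6 and 37.04 CPM with SNX631 (log2 fold changes 0.59 ± 0.063, edgeR FDR = 8.31e-09, and 0.36 ± 0.055, edgeR FDR = 2.11e-06). With R1881 as well, PDK1 was at 59.9, 57.99 and 52.5 CPM and at 63.7, 72.5, 68.9 and 62.8 CPM. SLC16A1, whose values are given above, had log2 fold changes of 0.59 ± 0.036 (edgeR FDR = 1.87e-14) and 0.53 ± 0.028 (edgeR FDR = 4.32e-18) without R1881. All 3 calls lay close to the 1.5-fold limit, with folds of 1.50 for HK2, 1.50 for SLC16A1 and 1.50 for PDK1, and with library totals for scaling none of the 3 was called.

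In all, 10 members passed upward in each of the 4 comparisons, the others being GPI, PFKP, ENO1, LDHA, LDHB, PFKFB3 and PDHA1. How many of all genes did so was not counted, so whether 10 is unusual cannot be told. PFKFB3 was at 28.6, 26.4 and 25.5 CPM with Senexin B beside 22.8, 22.2 and 22.6 CPM with vehicle, and at 36.2, 35.1 and 36.5 CPM with both agents beside 27.5, 30.2 and 28.9 CPM with R1881. At 72 h PFKFB3 was at 23.7, 24.2, 24.1 and 23.8 CPM with SNX631 beside 20.4, 21.7, 19.1 and 21.3 CPM with vehicle, and at 35.4, 34.1, 33.8 and 35.4 CPM with both beside 24.7, 24.1, 22.5 and 24.8 CPM with R1881. Its log2 fold changes with inhibitor ranged from 0.21 to 0.53 over the 4 comparisons. LDHB was at 105, 112 and 113 CPM with Senexin B and at 142, 149 and 148 CPM with both agents, and at 72 h at 122, 126, 122 and 123 CPM with SNX631 and at 145, 143, 148 and 155 CPM with both, giving log2 fold changes of 0.26, 0.34, 0.30 and 0.32. PFKP, which R1881 did not change past the threshold, was at 55.8, 59.7 and 63.7 CPM with Senexin B beside 45.7, 47.3 and 47.5 CPM with vehicle, and at 72 h at 50.5, 55.3, 51.3 and 49.9 CPM with SNX631 beside 42.8, 41.8, 44.8 and 45.1 CPM with vehicle, with log2 fold changes of 0.34 and 0.25. In contrast HK1 was lower, at 211, 212 and 215 CPM with Senexin B (−0.21 ± 0.039, edgeR FDR = 5.76e-05) and at 192, 192, 192 and 188 CPM with SNX631 (−0.24 ± 0.025, edgeR FDR = 4.79e-10). The share of HK2 in the summed hexokinase TPM was accordingly 22.8 ± 0.45% with Senexin B beside 14.5 ± 0.16% with vehicle, and 25.6 ± 0.73% with SNX631 beside 17.97 ± 0.63%. IDH1 was at 271, 253 and 275 CPM with Senexin B and at 261, 248, 242 and 240.2 CPM with SNX631, overlapping with the vehicle libraries of its experiment. No TCA cycle member passed with Senexin B alone, and with SNX631 alone IDH2 and FH passed upward and SUCLA2 downward, with log2 fold changes of 0.10, 0.11 and −0.22. COL1A1, the only stromal marker tested, fell with each inhibitor alone. Of the 12 proliferation genes 8 rose with Senexin B alone and all 12 with SNX631 alone. The part of COL1A1 and of these genes in the results was not tested. Senexin B and SNX631 were used at different doses and times, so their values are set side by side and not compared.

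**Figure D5:**
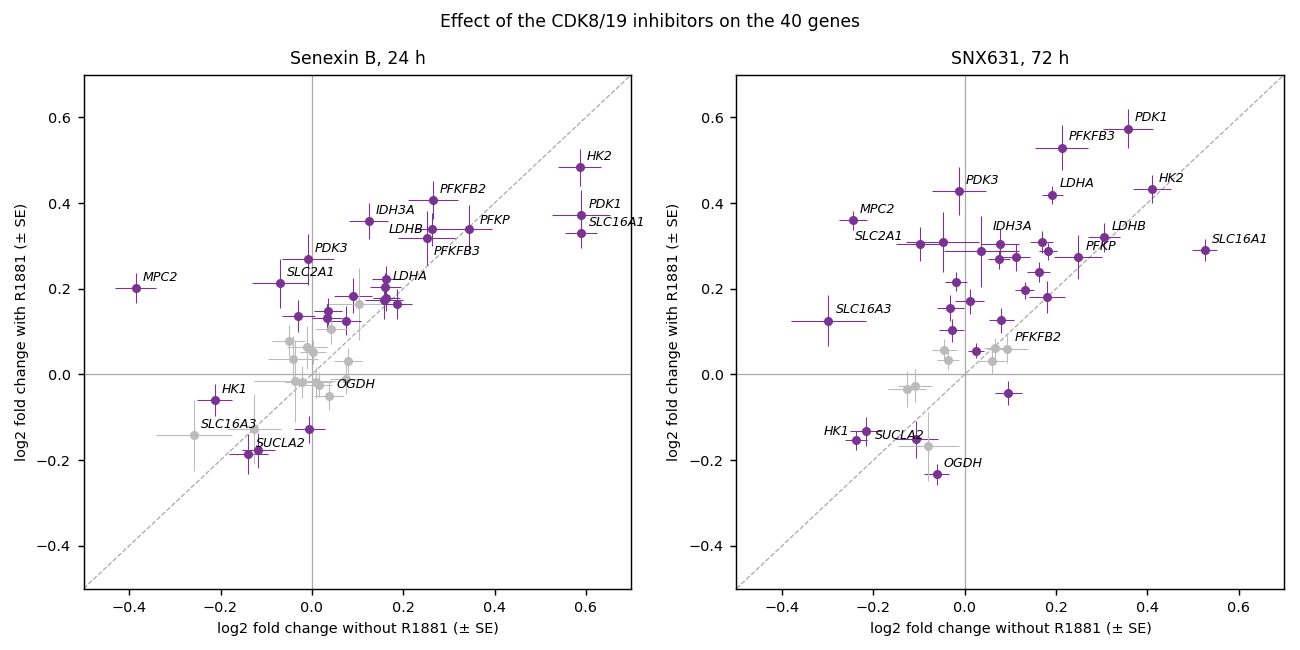
Log2 fold change with the CDK8/19 inhibitor for the 40 members without R1881 (horizontal axis) and with R1881 (vertical axis), for Senexin B at 24 h (left) and SNX631 at 72 h (right), with bars for the SE, the dashed line marking equality, and purple for members that passed at least 1 of the comparisons. HK2, PDK1 and SLC16A1 lie to the right in both panels, and MPC2 lies at −0.39 and 0.20 at 24 h and at −0.25 and 0.36 at 72 h.

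The R1881 effects of the experiments were set against each other in a fit of all 28 libraries. The effect was larger in the 72 h experiment for 10 members and smaller for 1, against 3.58% and 3.96% of the 16672 genes tested, and 0 members were called by edgeR, against 1.88%, while 24 had an unadjusted p under 0.05, beside 25.6% of all genes. With library totals 10 were larger and 4 smaller. The 10 were SLC16A3, MPC2, SLC2A1, HK1, OGDH, PFKL, LDHA, ALDOA, TPI1 and PKM, and the 1 was SLC16A1, with values in the closing section. Dose and time cannot be told apart here.

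Other genes of these pathways, from lists that hold none of the members, gave a mixed picture. Of 34 further genes of glycolysis and glucose handling, 23 were tested at 24 h and 22 at 72 h. With R1881, 8 rose and 5 fell at 24 h, and 8 rose and 4 fell at 72 h. Of all genes, 26.3% rose and 22.1% fell at 24 h, and 27.6% and 24.6% at 72 h. The median log2 fold change of this list was 0.0003 at 24 h and 0.04 at 72 h, beside 0.22 and 0.26 for the members. PGM2, which interconverts sugar phosphates, rose by log2 0.90 and 1.22, and the transporter SLC2A12 by 0.91 and 1.11, while ENO2, the neuronal enolase, fell by 0.97 and by 0.91 on the log2 scale. SLC2A3, a neuronal-type glucose transporter, averaged 0.00630 TPM in the 24 h vehicle and 0 TPM in the 72 h vehicle, and 1.16 and 2.54 TPM with R1881, so that it stayed far under SLC2A1, which had 42.9 ± 1.6 and 48.7 ± 1 TPM there. Of 29 further genes of pyruvate dehydrogenase and the TCA cycle, 28 were tested, of which 14 rose and 6 fell at 24 h and 16 rose and 3 fell at 72 h. Their medians were 0.10 and 0.12 on the log2 scale. GLUD1, which feeds glutamate carbon into the cycle, rose by log2 0.92 and 1.05, GOT1, a cytosolic transaminase, by 0.61 and 0.64 and PDHX, a structural subunit of pyruvate dehydrogenase, by 0.65 and 0.72, while OGDHL, a paralogue of OGDH, fell by 0.68 and by 0.64. Of 7 further genes of the pentose phosphate pathway 4 rose and 1 fell at 24 h, and 4 rose and 0 fell at 72 h, led by RPIA, an isomerase of the pathway, with 0.53 and 0.49. The medians of these 7 genes were 0.28 and 0.18. Of 20 hypoxia-inducible genes outside glycolysis, 17 were tested at 24 h and 18 at 72 h, and 7 rose and 6 fell at each time. NDRG1, also known to respond to androgen, rose by log2 2.36 and 2.97, ANKRD37 by 0.95 and 1.57, and EGLN3, an oxygen-sensing hydroxylase, fell by 1.16 and by 1.13. LOX, an enzyme that crosslinks collagen, rose by 3.62 and 4.67 from levels of 0.331 and 0.118 TPM. The hypoxia-inducible genes thus had no common direction with R1881, with medians of 0.05 and 0.06 on the log2 scale.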

How the data were processed

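LNCaP libraries of 8 groups were sequenced, and the authors deposited expected counts per gene, not scaled to depth, of which 16.87% of the values above 0 were fractional. The submitters' processing notes name STAR 2.7.2b, cutadapt 2.8, Subread 2.0.3, featureCounts and FastQC, and the builds GRCh38.p13 and GRCm39; their roles, the annotation release and the use of strand are not given in the sources used here. The 2 rows that were not human genes summed to 0 and were left out. The expected counts were rounded to whole counts. Shared reads could split between members and their pseudogenes, whose rows held few reads, and adding them back was tried. Each experiment was fitted by itself with edgeR 4.0.16 (limma 3.58.1, R 4.3.3): TMM scaling, genes kept by filterByExpr (min.count 10, min.total.count 15), and the quasi-likelihood test with Benjamini-Hochberg adjustment over all genes tested. The R1881 effects were compared between experiments in 1 fit of the 28 libraries. TPM used the merged length of all exons of a gene in GENCODE 29, available for 58261 genes with 99.56% of the counts. DESeq2 1.42.0 was an alternative. Figures and summaries were made in Python 3.11.15 with pandas 2.3.3 and matplotlib 3.10.9. The fit was first tested on simulated data. For R1881 it recovered 65% of 1.25-fold changes at 24 h and 80% at 72 h, and 100% of 2-fold changes at both times. Only 100 genes were changed at each fold, whereas 48.4% of all genes passed with R1881 at 24 h and 52.2% at 72 h. The FDR limit thus fell at another p value, and these shares are not the sensitivity of the tests reported here. Total counts per library, from 9846595 to 33809419, set the precision.

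Values of every library are given for up to 10 members with the largest R1881 effect past the FDR limit in both experiments, up to 6 with the largest inhibitor effect past it in at least 3 of the 4 inhibitor comparisons, up to 4 with the largest interaction, and the members of 4 isozyme pairs; MPC1 is given as the partner of MPC2. From each other list, up to 4 genes could be named by the same measure. The members and lists were chosen with earlier results of these data known.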

Additional observations from a re-analysis of the deposited data

Results flagged for a closer look

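Among 64 groups of 4 libraries examined, 2 held a library far from the others, where chance gives about 1 in 20. In the 72 h vehicle, MPC2 stood at 113.4 CPM in replicate 2, with the other 3 libraries between 109.6 and 110.2 CPM. With R1881 and SNX631 at 72 h, PDK2 stood at 23.44 CPM in replicate 3, and the other 3 libraries between 17.88 and 18.79 CPM.

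The R1881 effect differed between the 72 h and the 24 h experiment for 11 members by edgeR in the fit of all 28 libraries, where dose and time differ together. As log2 differences of 72 h minus 24 h, SLC16A3 gave 0.51, MPC2 0.46, SLC2A1 0.30, HK1 0.27, OGDH 0.26, PFKL 0.25, LDHA 0.22, ALDOA 0.22, TPI1 0.21 and PKM 0.14. SLC16A1 gave −0.21. Over the same comparison 10 of 12 proliferation genes passed downward, with a median of −0.76, and their part in the result was not tested.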

How the results depend on the processing

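Under other processing, 5646 values of members past the FDR limit, or of MPC1, were compared. Of these, 5446 kept their direction and their side of the FDR limit, and 199 kept their direction with an FDR no longer under 0.01. Fits with 1 library left out gave 3575 of the 5446 and 137 of the 199. Many of them left out a library outside the comparison, which could hardly move the value, so the count overstates how far the values were tried. The remaining 1 reversed, that of PGD for R1881 under SNX631, at −0.00909 with library totals. The fold limit was not applied here, so a call lost only through the fold counts as kept. With no fold limit and an FDR under 0.01 or 0.05, the called members were 31 and 31 for R1881 at 24 h, 33 and 35 for R1881 under Senexin B, 14 and 19 for Senexin B, 24 and 25 for Senexin B beside R1881, 2 and 5 for the 24 h interaction, 34 and 35 for R1881 at 72 h, 36 and 36 for R1881 under SNX631, 18 and 23 for SNX631, 30 and 31 for SNX631 beside R1881, and 15 and 20 for the 72 h interaction; for the difference between experiments there were 11 at 0.01. Of all genes, the shares at those limits were, in the same order, 48.4% and 58.4%, 47.5% and 57.4%, 25.1% and 35.8%, 22.7% and 33%, 2.09% and 4.51%, 52.2% and 62.1%, 57.3% and 65.7%, 26.9% and 36.5%, 33.1% and 42.8%, 7.09% and 12.7%, and 7.54%. Senexin B alone called 0 with library totals and 0 with no filter on low counts. The 24 h interaction of MPC2, close to the fold limit, gave 0 called with DESeq2 size factors, 0 with the DESeq2 test and 0 with a minimum count of 50, and between 0 and 1 when a library was left out, 0 without replicate 1 or 3 of vehicle, 1 or 2 of Senexin B, 1 or 3 of R1881, or 1 of R1881 with Senexin B. SNX631 beside R1881 called 1 member, PDK1, with no filter and 1 with all libraries in 1 fit, and between 0 and 1 when a library was left out, 1 without replicate 2 of R1881 or replicate 1 or 4 of R1881 with SNX631. Replicate numbers did not pair the samples, since the correlations of deviations between libraries of the same number lay between −0.0145 and 0.0666 at 24 h and between −0.0677 and 0.073 at 72 h. With the replicate block, R1881 called 8 members at 24 h and 10 at 72 h, Senexin B 2 in place of 3, and 4 members passed downward with Senexin B in place of 2; no other count of members in either direction moved past 1.5 times.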

Other observations

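The further pathway genes were also counted under the inhibitors. R1881 under Senexin B raised 18 and lowered 5 of 28 further genes of pyruvate dehydrogenase and the TCA cycle, beside 26.3% and 21.2% of all genes. Under SNX631, R1881 raised 21 and lowered 4, beside 29.8% and 27.5% of all genes. The hypoxia-inducible genes outside glycolysis split into 7 higher and 6 lower of 17 under Senexin B, and into 11 higher and 6 lower of 18 under SNX631, with a median log2 fold change of 0.34 beside 0.06 without the inhibitor. For the 72 h interaction 5 of these 18 passed upward and 1 downward, beside 2.99% and 4.1% of all genes.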
